A study of Ambystoma mexicanum with 61 samples.

Results

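The voltage-gated and potassium channel genes of the axolotl Ambystoma mexicanum were followed across bulk RNA-seq libraries of 17 tissues in neotenic animals and 15 tissues in metamorphosed animals. Members were chosen by symbol alone: every gene model of the deposited count tables whose symbol is that of a Kv, Kir or tandem-pore potassium channel (Kcna, Kcnb, Kcnc, Kcnd, Kcnh, Kcnq, Kcnj, Kcnk), a voltage-gated sodium channel subunit (Scn) or a voltage-gated calcium channel subunit (Cacna, Cacnb). The rule found 70 of 23251 gene models, which carry 57 symbols. Because the genome annotation is fragmented, 9 symbols have several models (22 models in all), and a model other than the one with most counts is written here as, for example, Kcnj1 model 2. Member lengths run from 347 to 8880 bases and 14 members have a single exon.

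All 61 libraries came from adult axolotls of the d/d strain at an age of 1 year. The 34 neotenic libraries hold 17 tissues in 2 batches each, from untreated animals that keep gills and fins. The 27 metamorphosed libraries came from animals kept in 50 nM thyroxine (T4) for about 12 days and then held for 2 more weeks; 12 tissues have 2 such libraries, while brain, fore limb and heart have 1. The study's methods give 2 animals of each state, so every value below rests on at most 2 animals a group. The libraries are of whole tissue: neurons, muscle fibres and epithelia of one organ are read together.

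Voltage-gated channels open when the membrane depolarizes. In mammals, sodium channels (Nav) carry the upstroke of the action potential, potassium channels (Kv) end it, and calcium channels (Cav) turn it into contraction or transmitter release. Inward rectifiers (Kir) and tandem-pore channels (K2P) pass potassium at rest, setting the resting potential of excitable cells and recycling potassium in kidney, stomach and other transporting epithelia. Pore subunits (α, α1) are joined by auxiliary subunits (Navβ, Cavβ, α2δ) that set their delivery to the membrane and their gating. The roles given below are those known from mammals.

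Library totals ran from 69278 to 27389476 assigned counts with a median of 7899985, and the second lowest total was 1604880. Several libraries stood apart from their labels. The library labelled neotenic stomach replicate 2 held 5288 CPM (counts scaled to a common library size) of 9 summed skeletal muscle markers against 31.1 in replicate 1, and the library labelled neotenic tail replicate 2 held 25.1 against 16244 in replicate 1. The 1 of 7 listed gastric markers that matched a gene model, Gkn1, read 12133 CPM in stomach replicate 1 and 4.89 in the library labelled stomach replicate 2, but 1.75 in tail replicate 1 and 18361 in the library labelled tail replicate 2. Each of these 2 libraries thus carried the marker levels of the other label. Neotenic bladder replicate 2 held 12692 CPM of the same markers against 22.6 in replicate 1. The metamorphosed skin replicate 1 library is the one of 69278 counts, where 3 counts already make 43.3 CPM before scaling. Metamorphosed skin 2, fore limb 1, hind limb 2 and bladder 2 held 2047 to 3711 CPM of summed intestine markers, against 37512 and 8592 in the metamorphosed intestine. Many metamorphosed libraries outside stomach also held Gkn1, up to 50.3 CPM in liver replicate 2, where neotenic liver held 2.12 and 4.39. The defining markers were otherwise where the labels place them: 8 of 8 neuron markers were enriched in brain and in eye, 6 of 6 heart muscle markers in heart and 9 of 9 skeletal muscle markers in the limbs. Only 1 of 12 photoreceptor markers matched a gene model, so the retina could be checked by Guca1a alone (21.5 and 26.7 CPM in neotenic eye).

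The channel genes were brain and eye genes first, with smaller sets in heart and kidney. In the limbs 3 of 64 tested members were enriched, where 6.42% of all genes were. Together the 70 members took 0.238% and 0.302% of all counts in the neotenic brain libraries, 0.075% and 0.123% in eye, 0.076% and 0.088% in kidney, and 0.006% and 0.009% in spleen. Of 64 members with enough counts to test in the neotenic libraries, 34 had their highest tissue mean in brain, 14 in eye, 4 in kidney and 2 in heart. In 62 of the 64 the level differed between tissues (edgeR, 71.5% of all genes tested). A bulk level cannot tell fewer cells of a type from less RNA per cell.

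**Figure D1:**
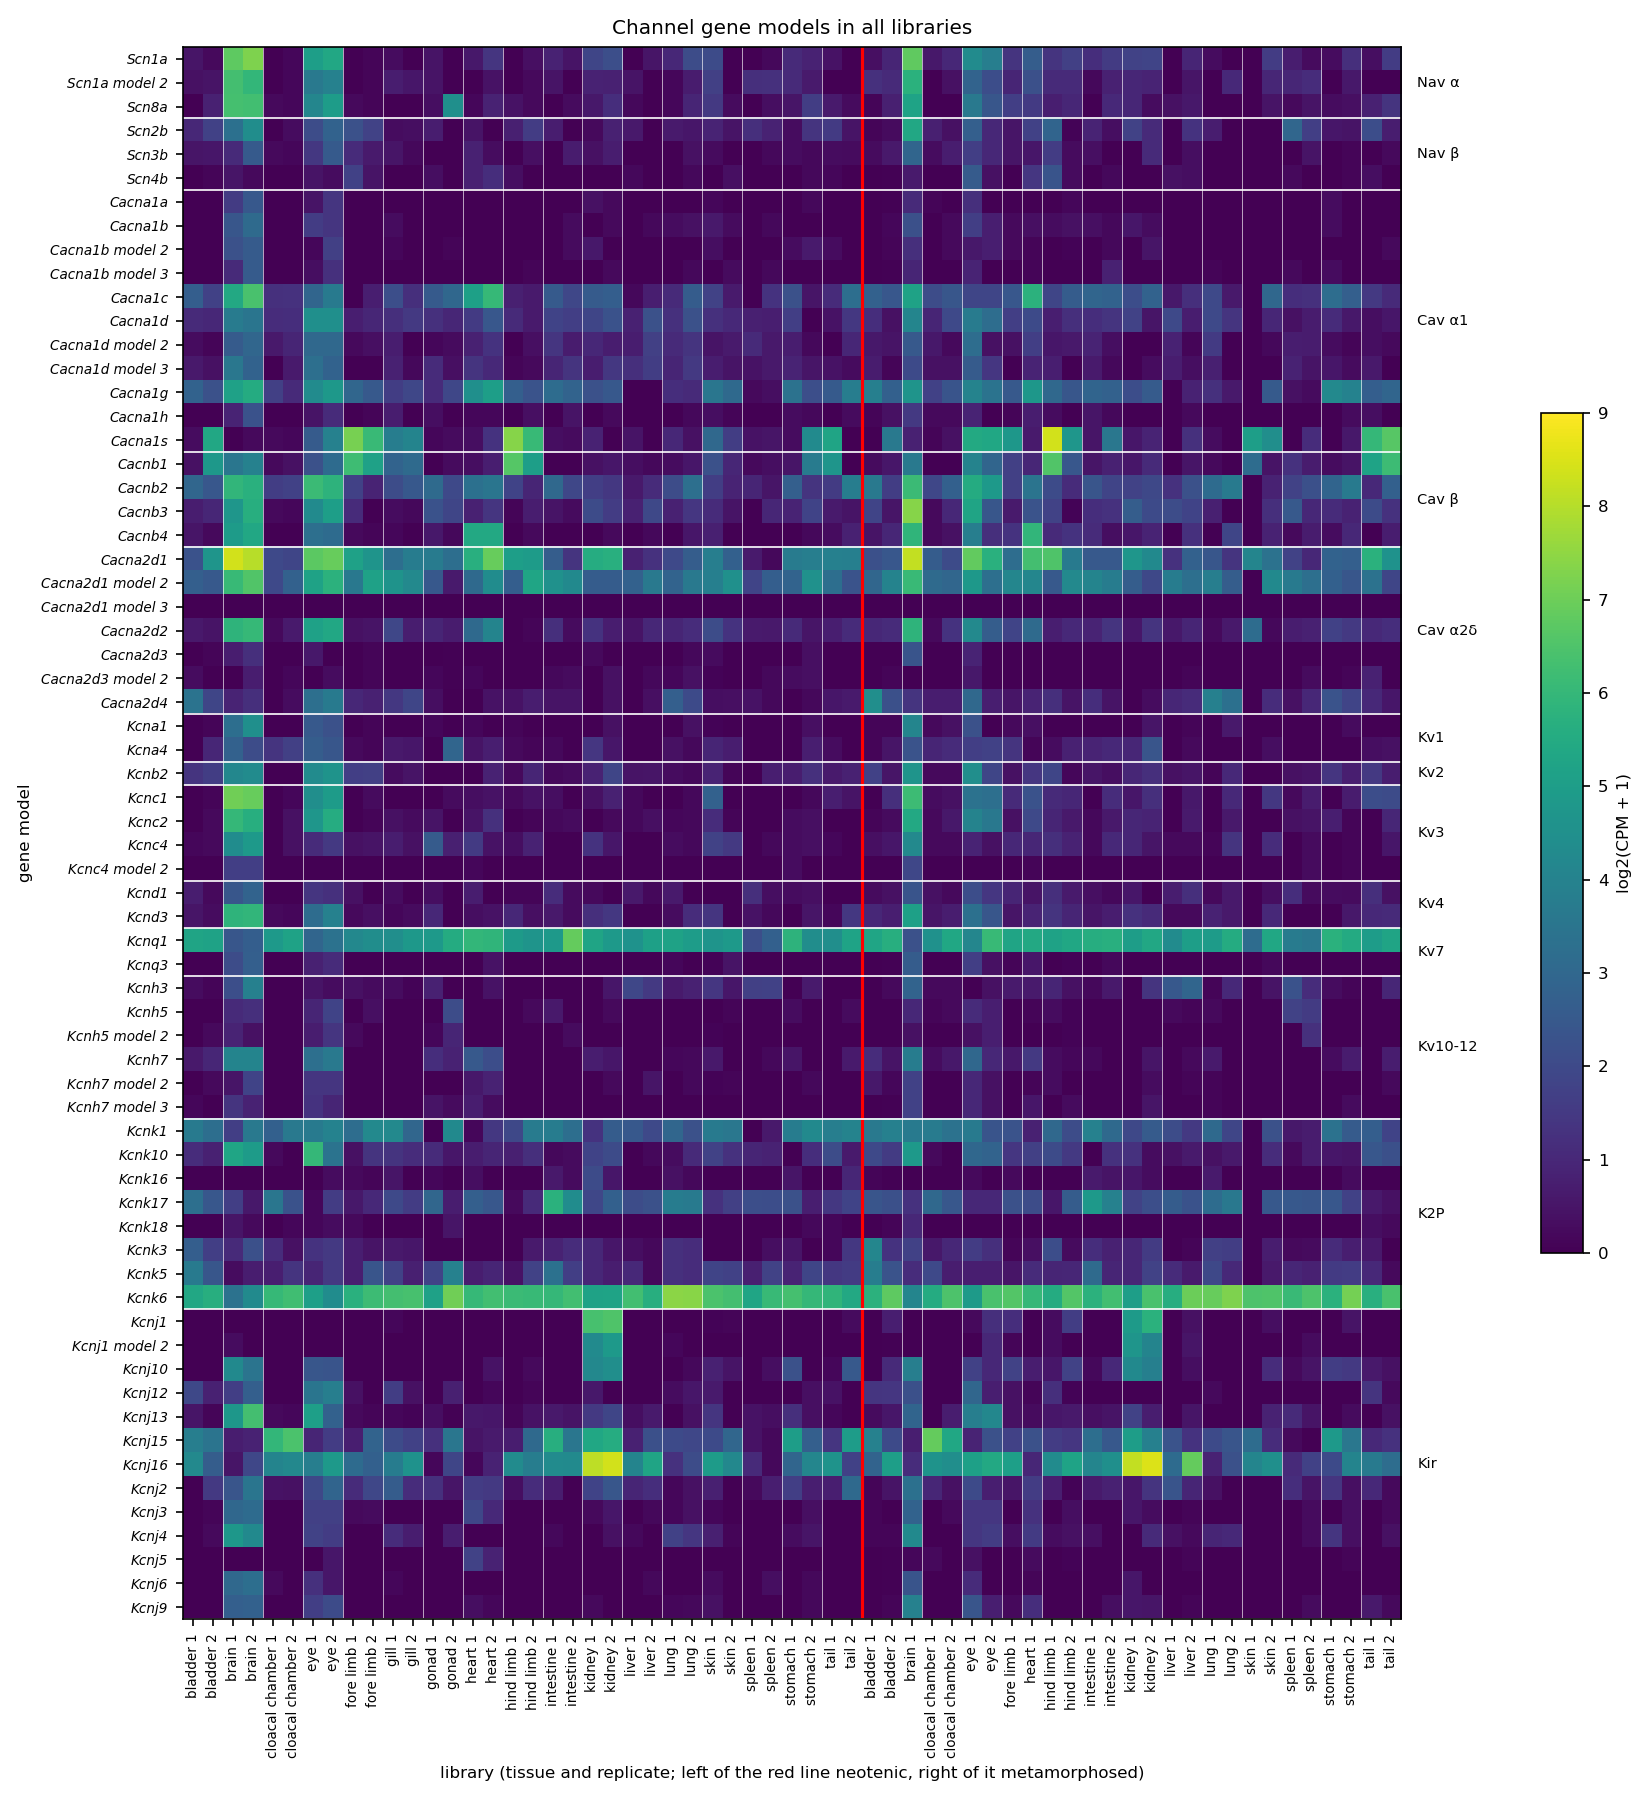
Level of 66 of the 70 channel gene models (rows, grouped by family) in each of the 61 libraries (columns, neotenic left and metamorphosed right of the red line), as log2(CPM + 1). The brain and eye columns are bright over most families, while Kcnk6 and Kcnq1 are bright in most tissues and Kcnj1 in kidney.

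Enrichment was called where a tissue exceeded the mean of the other 16 neotenic tissues by at least 2 on the log2 scale at an adjusted p under 0.05 (edgeR quasi-likelihood test, 2 libraries a tissue). In brain 52 of 64 members were enriched, against 16.1% of all 18982 genes tested. In eye 48 were enriched (14% of all genes). Heart followed with 12 (6.6%), then kidney with 8 (7.16%), gonad with 8 (11%) and bladder with 7 (4.61%). The 8 in kidney carry 7 symbols, as Kcnj1 and its model 2 both count. Both models had at most 1 count in any other neotenic library, so they had enough counts to test through kidney alone. The median log2 fold change of the members was 4.95 in brain and 4.23 in eye, where that of all genes was −0.07 and 0.10. In heart it was 0.12 against −0.05 and in kidney 0.70 against −0.04, so in those tissues a minority of members was high.

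Most members enriched in brain were also enriched in eye. Enrichment in both was called for 47 members, 90.4% of those of brain and 97.9% of those of eye, and 34 of the 47 had a higher mean in brain. The like overlap over all genes was not counted, so whether these shares are particular to the channel genes was not tested. Cacna1c, Cacnb1, Kcnc4 model 2, Kcnh3 and Kcnj2 were called in brain and not in eye, and Cacna2d4 in eye and not in brain; the difference between the tissues was not tested. The 11 members called in neither were Cacna1s, Kcnj1 and its model 2, Kcnj15, Kcnj16, Kcnk1, Kcnk5, Kcnk6, Kcnk17, Kcnq1 and Scn4b, mostly channels of epithelia and muscle. Some members passed the filter on low counts through brain alone: without the brain libraries 56 members passed, of which 44 were enriched in brain (14.3% of all genes that passed). Of the neuron markers, summed levels were 2928 and 1757 CPM in brain, 669 and 836 in eye and at most 132 in any other neotenic library.

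**Figure D2:**
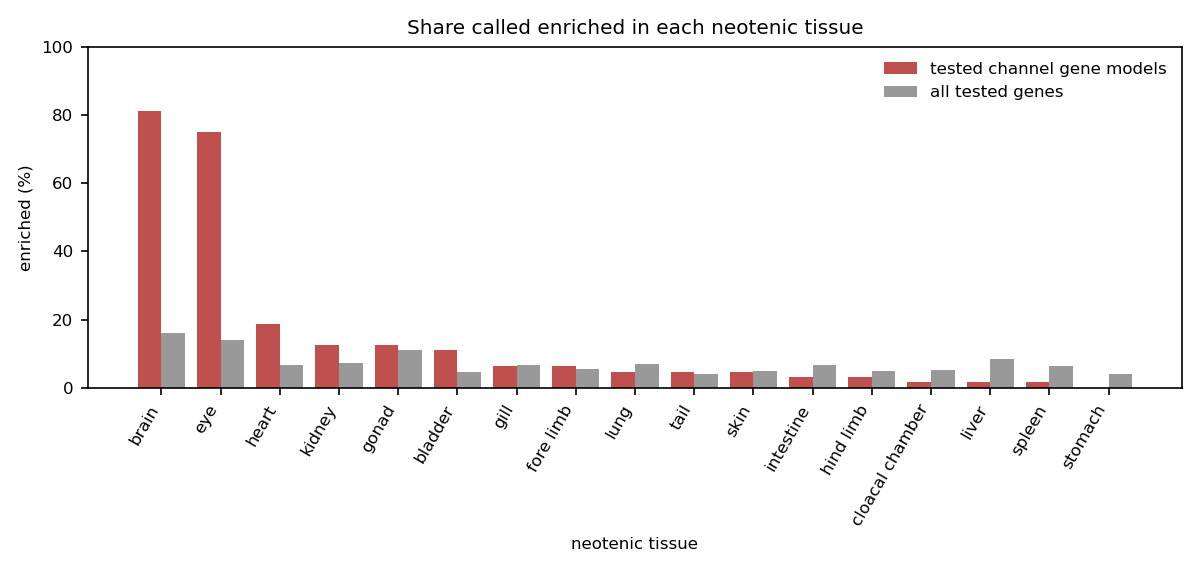
Share of the 64 tested channel gene models (red) and of all 18982 tested genes (grey) called enriched in each neotenic tissue, in percent, with 2 libraries per tissue. The red bar stands far above the grey one in brain (52 members) and eye (48), and above it in heart (12); in stomach no member was called.

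Scn1a and Scn8a, pores of central neurons, were brain and eye genes. Scn1a stood at 109 and 152 CPM in the neotenic brain libraries, 31.7 and 40.6 in eye and 2.65 and 3.49 in kidney. Its log2 fold change was 8.14 (SE 0.51, edgeR adjusted p = 3.23e-11) in brain and 6.24 (SE 0.55, adjusted p = 9.77e-09) in eye. The brain and eye libraries did not overlap, and all other tissues lay below both. Scn8a, the pore of the axon initial segment and nodes of Ranvier, read 80.1 and 75.6 CPM in brain and 16.7 and 30.8 in eye, with a log2 fold change of 7.48 in brain (SE 0.58, edgeR adjusted p = 1.37e-09). The gonad libraries differed for Scn8a, with 0.253 CPM in replicate 1 and 21.2 in replicate 2, so its call in gonad rests on 1 library.

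Of the β subunits of sodium channels, Scn2b peaked in brain at 8.95 and 20.5 CPM. Scn3b was near even in eye (1.77 and 4.79 CPM) and brain (1.09 and 4.79). Scn4b, a β subunit of skeletal muscle, heart and some neurons, was highest in fore limb at 2.34 and 0.387 CPM and in heart at 0.765 and 1.26, and was the weakest of the limb calls (log2 fold change 2.76, SE 0.88, edgeR adjusted p = 0.0369). All 5 tested genes of a list of central neuron sodium channels were enriched in brain and in eye. Of all 64 tested members 52 and 48 were (16.1% and 14% of all genes).

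The calcium channel pores Cacna1s and Cacna1c had opposite places in limb and heart. Cacna1s, the voltage sensor that triggers contraction of skeletal muscle, read 163 and 66.3 CPM in neotenic hind limb, 141 and 67.5 in fore limb and 0.255 and 1.49 in heart. In the limbs together its log2 fold change was 6.43 (SE 0.65, edgeR adjusted p = 5.01e-07), the largest of the 3 limb calls among members (6.42% of all genes were called there). Both limb tissues lay above every other neotenic library, and heart lay with the non-muscle tissues. Cacna1c, the L-type pore of heart, vessels and neurons, had the reverse place: 33.4 and 65.1 CPM in heart and 42.4 and 83.6 in brain, with overlapping libraries. It was among the 4 members lower in the limbs.

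In neotenic bladder and in the libraries labelled stomach and tail, the Cacna1s level went with the skeletal muscle markers of the library. It was 41.6 CPM in neotenic bladder replicate 2 and 0.218 in replicate 1, 18.8 in the library labelled stomach replicate 2 and 0.217 in replicate 1, and 37.6 in tail replicate 1 and 0 in the library labelled tail replicate 2. In each pair the library with Cacna1s was the one with the skeletal muscle markers. Over all 61 libraries, Pearson's r between log Cacna1s and the log summed level of 9 skeletal muscle markers was 0.83 (Spearman's rho 0.84), as a description of libraries that share tissues and animals. The 3 heart libraries departed from it, with 11961 to 13810 CPM of the marker sum and at most 1.49 CPM of Cacna1s (3 of the 9 markers were enriched in heart). Most of that sum was 1 marker, Ckm, at 13033.5 and 11054.5 CPM in neotenic heart and 12520.6 in metamorphosed heart. The heart sum is thus no measure of the 9 markers as a set. Without the 3 heart libraries r was 0.92. The metamorphosed libraries of skin 1, skin 2, bladder 2 and intestine 2 held 32.2, 20.6, 11.5 and 10.8 CPM of Cacna1s. Their marker sums were 983, 129, 63.2 and 121 CPM, and skin 1 is the library of 69278 counts. Neotenic gill held 13 and 15.8 CPM of Cacna1s beside 3503 and 3719 of the markers.

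**Figure D3:**
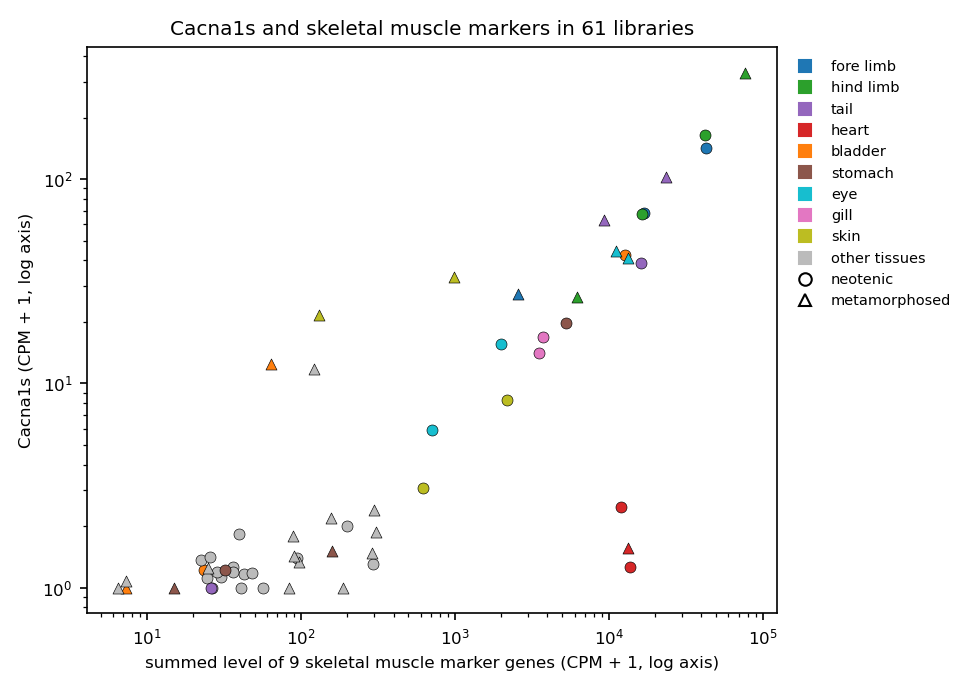
Cacna1s against the summed level of 9 skeletal muscle marker genes in each of the 61 libraries, both as CPM + 1 on log axes; colours mark tissues, circles neotenic and triangles metamorphosed libraries. The limb libraries rise to the upper right, as do those of tail other than the one labelled neotenic tail replicate 2. The 3 heart libraries lie at high marker levels, mostly of Ckm, with Cacna1s at most at 1.49 CPM.

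Among other calcium pores, Cacna1g, a low-threshold T-type pore of pacemaker and thalamic cells, read 34.3 and 45.7 CPM in brain, 21.3 and 31.7 in heart and 19.1 and 26.9 in eye. Cacna1d, the L-type pore of hair cells, retina and sinus node, was highest in eye at 21.4 and 21.2 CPM, above brain at 12.4 and 10.4. Its model 2 was also highest in eye (mean 7.26 CPM, brain 5.90). Its model 3 had the higher mean in brain (8.51 CPM, eye 7.51), with overlapping libraries. Of the presynaptic pores, Cacna1a read 1.96 and 4.62 CPM in brain and Cacna1b 4.37 and 7.6. Cacna1h, another T-type pore, read 0.873 and 3.8 CPM there. Per kilobase, with the model of most counts for each symbol, the leading neotenic heart pores were Cacna1c (46.6% and 47.6% of the family) and Cacna1g (33.96% and 26.5%), while Cacna1s made up 98.2% and 96.1% in fore limb and 98.2% and 96.7% in hind limb.

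The 4 Cavβ genes, cytoplasmic subunits that bring the pore to the membrane, had a different leading member by tissue. Cacnb1, the partner of the skeletal muscle pore, made up 95.8% and 97.4% of Cavβ CPM per kilobase in fore limb and 97.6% and 95.4% in hind limb. Cacnb4 made up 82.2% and 78.6% in heart. Cacnb2 led in intestine (96.3% and 95.2%), cloacal chamber (87.2% and 84.5%) and eye (72.3% and 58.6%), and brain mixed all 4, with Cacnb2 at 49.4% and 35.3% and Cacnb4 at 26.5% and 30.5%. In 3 tissues the library decided the leading subunit: Cacnb1 made up 4.3% and 84.2% in the bladder libraries, 6.8% and 78.8% in those labelled stomach and 90.9% and 0% in those labelled tail, as the muscle markers did.

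**Figure D4:**
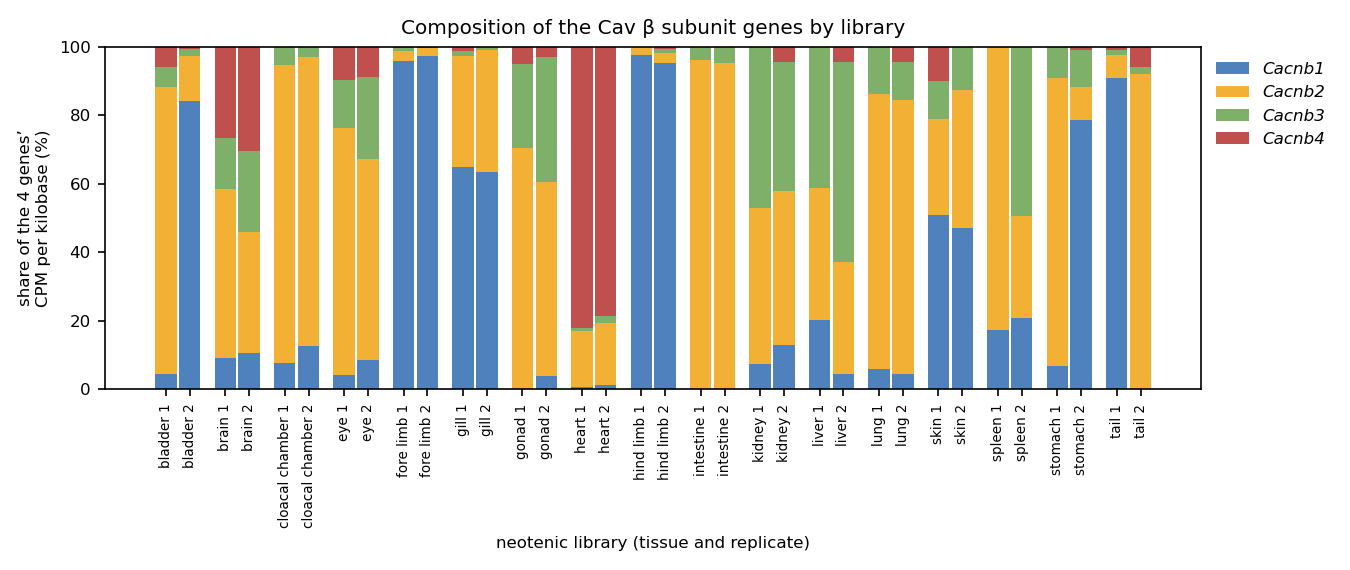
Share of each of the 4 Cavβ genes in their summed CPM per kilobase of gene model, in percent, for each neotenic library. Cacnb1 (blue) fills at least 95.4% of each limb bar and Cacnb4 (red) most of the heart bars, and bladder, stomach and tail differ between their own 2 libraries.

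In CPM, Cacnb1 read 98.3 and 31.6 in hind limb and 73.3 and 34.8 in fore limb, and its log2 fold change in the limbs was 5.81 (SE 0.60, edgeR adjusted p = 7.88e-07). Its pattern over the 17 neotenic tissues was the one most like that of Cacna1s (r = 0.894 of tissue means on the log scale). Cacnb4 read 41.8 and 41.7 CPM in heart, 29.9 and 41.3 in brain and 8.74 and 7.76 in eye, and rose by a log2 fold change of 7.72 in heart (SE 0.50, edgeR adjusted p = 1.45e-09) and of 7.56 in brain (SE 0.51, edgeR adjusted p = 5.45e-10). In mammals Cacnb4 is best known from the cerebellum and Cacnb2 from the heart; here Cacnb2 read 69.4 and 55.4 CPM in eye, 59.8 and 51.2 in brain and had a mean of 9.62 in heart. Cacnb3 read 25.5 and 48.4 CPM in brain and 18.9 and 32.2 in eye.

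The α2δ subunits are extracellular partners that carry pores to the synapse and the muscle membrane. Cacna2d1, the target of gabapentin, read 330 and 264 CPM in brain, 105 and 120 in eye, 50.5 and 118 in heart and 46.4 and 50.7 in kidney. The model with most counts was called in all 4 tissues, and model 2 in brain and eye alone (means of 79.5 and 44.4 CPM). Per kilobase, taking for each symbol the model with most counts, Cacna2d1 led the brain members at 48.0 CPM per kilobase, ahead of Kcnc1 at 25.8 and Scn1a at 14.6. Cacna2d2 followed brain and eye, at 56.3 and 63.8 and at 34.5 and 40.6 CPM. Cacna2d4, which rods and cones need for transmission, read 8.87 and 11.6 CPM in eye, 9.72 and 2.68 in bladder and 5.63 and 3.08 in lung, so that its eye and bladder libraries overlapped. Cacna2d3 and its model 2 were too low to test (at most 1.32 CPM in any neotenic library), and Cacna2d1 model 3, which overlaps a Kirrel2 model by 1982 exonic bases, had 0 counts in all libraries.

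Among Kv pores, Kcnc1 and Kcnc2, Kv3 pores of fast-firing neurons, had the 2 largest brain log2 fold changes of the set (9.33 and 8.22). Kcnc1 read 130 and 121 CPM in brain and 20.7 and 29.9 in eye, with the largest brain log2 fold change of any member (9.33, SE 0.51, edgeR adjusted p = 1.55e-11). Kcnc2 read 63.3 and 49.4 CPM in brain and 25.7 and 46.3 in eye, and led the eye calls (7.61, SE 0.47, edgeR adjusted p = 1.96e-10). Kcnc4 read 19.6 and 28.4 CPM in brain and 2.45 and 1.79 in skin, where it was called too (2.60, SE 0.56, edgeR adjusted p = 0.00529). Fitted fold changes against tissues without counts depend on the small count added to every gene and are no bounds: with every library at 3 counts or fewer set to 3 counts, the median log2 fold change of members was 3.44 in brain (all genes −0.04) and 1.96 in eye (−0.02).

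Most other neuronal Kv genes were also highest in brain, then eye. Kcnd3, a Kv4 pore of dendritic A-type current, read 56.5 and 59.5 CPM in brain and 7.98 and 14.4 in eye. Kcna1, the Kv1 pore of axons, read 8.51 and 21.1 CPM in brain and 4.69 and 3.65 in eye. Kcnq3, a pore of the neuronal M-current, read 3.27 and 5.62 CPM in brain, with at most 1.14 in any other neotenic library. Kcnb2, a Kv2 delayed rectifier, read 19.1 and 23.5 CPM in eye and 17 and 19.2 in brain, with overlapping libraries. All 17 tested genes of a list of central neuron potassium channels were enriched in brain and 16 in eye. Of all 64 tested members 52 and 48 were (16.1% and 14% of all genes).

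Of the Kv10 to Kv12 genes, Kcnh7 (an Erg-type pore) read 15.5 and 15.9 CPM in brain, 8.87 and 11.4 in eye and 4.72 and 3.32 in heart, and was called in all 3 (heart log2 fold change 4.61, SE 0.61, edgeR adjusted p = 5.73e-05). Its model 3 lies on the opposite strand over 263 shared exonic bases, and the counting did not use strand, so reads of these models cannot be told apart there. Kcnh3, a forebrain Elk-type pore, read 3.49 and 14 CPM in brain and was also called in liver (2.78 and 1.84 CPM, log2 fold change 3.52, SE 0.76, edgeR adjusted p = 0.00251) and spleen (2.23 and 2.32 CPM, 3.50, SE 0.77, edgeR adjusted p = 0.00222). It was the 1 member called in each of these tissues, where 8.36% and 6.49% of all genes were called.

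Kcnq1 departed from all other Kv genes. It forms the slow repolarizing current of heart and, with Kcne3, a basolateral potassium path of epithelia. It read 27.6 and 117 CPM in intestine, 60.7 and 58.9 in heart, 55.6 in stomach replicate 1 and 20.2 in the library labelled stomach replicate 2, and no more than 5.74 in brain and spleen. It was called lower in brain (log2 fold change −2.44) and in spleen, and enriched nowhere. Kcne3 itself read 262 and 338 CPM in neotenic heart, with bladder next at a mean of 3.43.

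The Kir genes split into a renal and epithelial set and a neuronal set. Kcnj1, the potassium secretory channel of the distal nephron, read 82 and 91.8 CPM in neotenic kidney and at most 0.194 in any other neotenic library. Against the level that 3 counts would give in the shallowest other neotenic library, kidney was at least 127-fold higher for Kcnj1 and at least 34.5-fold higher for Kcnj1 model 2 (18.7 and 28.5 CPM). The models lie 231 bases apart on the same strand of contig AMEXG_0030000663 (AmexG build), at 2625719 to 2626281 and 2625141 to 2625487, and gave the same tissue. Per kilobase Kcnj1 had the highest mean of any member in any tissue of either state, at 154 CPM per kilobase in neotenic kidney.

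Kcnj16 and Kcnj10, which pair into the basolateral channel of the distal convoluted tubule, were both called in kidney. Kcnj16 read 273 and 330 CPM there, 15.5 and 37.1 in liver and 29.9 and 17.4 in skin, with a log2 fold change of 5.43 in kidney (SE 0.43, edgeR adjusted p = 3.65e-09). It was called lower in brain (−2.48) and heart (−4.46). Kcnj10, also the potassium buffer of astrocytes and Müller glia, read 17.2 and 20.6 CPM in kidney, 18.3 and 9.91 in brain and 4.31 and 4.11 in eye, so it belonged to both sets. Its call in tail came from the library labelled tail replicate 2, the one with the gastric marker (4.66 CPM against 0.117 in replicate 1). Kcnj15, of gastric and renal epithelia, was highest in cloacal chamber at 61.8 and 85.6 CPM (log2 fold change 4.18, SE 0.57, edgeR adjusted p = 1.45e-05), the 1 member called there (5.16% of all genes). It read 40.1 and 46.8 CPM in kidney and 49.3 and 10.5 in intestine, where it was called as well.

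The neuronal Kir genes were the strong rectifiers and the G protein-gated ones. Kcnj4 read 26.2 and 18.3 CPM in brain (log2 fold change 7.69, SE 0.54, edgeR adjusted p = 9.74e-09) and also 2.36 and 1.7 in lung, where it was called (4.04, SE 0.68, edgeR adjusted p = 0.000572). The G protein-gated Kcnj6 and Kcnj9 read 7.2 and 8.59 and 5.68 and 5.95 CPM in brain. Kcnj3, which in mammals joins Kcnj5 in the atrial acetylcholine-gated channel, read 6.99 and 7.93 CPM in brain and 2.81 and 1.03 in heart (log2 fold change 4.52, SE 0.58, edgeR adjusted p = 6.2e-05). Kcnj5 had counts above 3 in neotenic libraries of heart alone (2.42 and 0.802 CPM) and was too low to test. Kcnj12, a strong rectifier, was highest in eye at 10.4 and 13.5 CPM (log2 fold change 6.31, SE 0.72, edgeR adjusted p = 2.11e-06).

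Kcnj13, known from the pigment epithelium of the eye and the choroid plexus, varied severalfold between libraries of one tissue. It read 26.4 and 79.3 CPM in neotenic brain with 6.38 in the metamorphosed brain, and 32.4 and 5.93 in neotenic eye with 13.3 and 16.8 in metamorphosed eye. Ttr, a choroid plexus marker in mammals, read 1.75 and 0.50 CPM in neotenic brain and 0 in metamorphosed brain. In neotenic liver it read 2995 and 2624 CPM, and the source of its brain RNA was not tested. The 4 matched pigment epithelium markers, Ttr among them, summed to 1164 and 291 CPM in neotenic eye and 514 and 617 in metamorphosed eye. In brain they summed to 80.8 and 51.4 CPM in neotenic libraries and 49.7 in the metamorphosed one. In neotenic liver they summed to 3013 and 2646 CPM, above eye. Of the 4, 2 were enriched in eye, 1 in brain and 2 in liver (14%, 16.1% and 8.36% of all genes). All 5 tested genes of a list of retina and pigment epithelium channels were enriched in eye, 4 of them also in brain. Of all 64 tested members 48 were enriched in eye and 52 in brain (14% and 16.1% of all genes).

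Of the 6 tested K2P genes, which leak potassium at rest, 2 (Kcnk3 and Kcnk10) were enriched in brain and in eye. Kcnk6 was the member with the highest mean per kilobase over all libraries (15.9 CPM per kilobase). It read 171 and 169 CPM in lung, 34.9 and 131 in gonad, 86.3 and 77.8 in skin and 9.61 and 18.8 in brain, its lowest tissue (log2 fold change −2.14), and it was enriched nowhere. Kcnk17, an alkaline-activated channel of pancreas and other epithelia, read 52.4 and 20 CPM in intestine (log2 fold change 3.70, SE 0.50, edgeR adjusted p = 7.1e-06) and 12.8 and 12 in lung (2.11). Intestine had 2 enriched members and lung 3, where 6.58% and 7.06% of all genes were called.

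Kcnk10, a stretch- and lipid-gated channel, read 62.1 and 9.81 CPM in eye and 38.2 and 29.9 in brain. Kcnk3, the acid-sensitive channel of vessels, atrium and neurons, was highest in bladder at 5.46 and 2.2 CPM (log2 fold change 3.65, SE 0.62, edgeR adjusted p = 0.000794). Kcnk5, of proximal tubule and immune cells, read 2.53 and 14.3 CPM in gonad and 11.8 and 4.33 in bladder. Kcnk1, a widely expressed leak channel, was enriched nowhere. It read 12.8 CPM in stomach replicate 1 and 18.4 in the library labelled stomach replicate 2, 13.6 and 15.3 under the label tail and 11.9 and 14.8 in eye. Kcnk16 and Kcnk18 were too low to test.

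The remaining calls rested on fewer reads and often on 1 library. In bladder 7 members were called, among them Cacna1s and Cacnb1, whose counts lay in the library with muscle markers; 5 were called without replicate 2 and 3 without replicate 1. In gonad 8 were called with both libraries, 8 without replicate 1 and 1 without replicate 2. Fore limb had 4 (5.6%), hind limb 2 (5.03%), gill 4 (6.69%), skin 3 (4.95%) and tail 3 (4.01%), and stomach had none (3.91%). Leaving out replicate 1 brought fore limb to 2, gill to 1, lung to 1, skin to 0, liver to 0 and tail to 1, leaving out replicate 2 brought gill to 2 and kidney to 5, and leaving out the library labelled stomach replicate 2 brought stomach to 1. With the batch as a block 1 member was called in tail. Without the libraries labelled stomach replicate 2 and tail replicate 2, 2 members were called in cloacal chamber, 2 in stomach and 5 in skin. The share of all genes called was not set beside the counts of these altered settings. Members called lower numbered 6 in spleen (11.8% of all genes), 5 in liver (3.16%), 4 in the limbs together (1.76%), 3 in brain (7.56%), 2 each in cloacal chamber (1.53%) and gonad (3.27%) and 1 each in heart (2.14%), fore limb (0.295%) and hind limb (0.537%). None was called lower in eye (1.02%), gill (0.785%), intestine (2.08%), kidney (0.585%), lung (0.385%), bladder (0.342%), skin (0.163%), tail (0.1%) or stomach (0.0632%).

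The lists of channel types regroup the members already described, so their counts are no separate evidence. Brain held more of the cardiac, skeletal muscle and smooth muscle lists than heart, limbs or bladder did. Of all genes, 16.1% were enriched in brain, 14% in eye, 6.6% in heart, 6.42% in the limbs, 7.16% in kidney, 4.61% in bladder and 6.49% in spleen. Lower were 7.56% in brain and 11.8% in spleen. Of 11 tested cardiac channel genes 5 were enriched in heart (among them Scn4b, Cacna1c, Cacna1g and Kcnj3) and 9 in brain. Of 6 tested skeletal muscle channel genes 3 were enriched in the limbs (Cacna1s, Cacnb1 and Scn4b) and 4 in brain. Of 8 renal and epithelial potassium channels 4 were enriched in kidney, 3 were lower in brain and 4 lower in spleen. All 8 tested presynaptic and dendritic calcium channel genes were enriched in brain and in eye. Of 4 tested smooth muscle and vessel channels 1 was enriched in bladder and 4 in brain, and neither of the 2 tested immune cell channels was enriched in spleen. No gene model carried a symbol of the 3 peripheral neuron sodium channels listed.

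Genes that work with these channels without being pores or subunits of the set had a like distribution. Of 69 listed partners 49 matched a gene model and 47 were tested. Of these, 36 were enriched in brain (16.1% of all genes), 30 in eye (14%), 16 in heart (6.6%), 8 in kidney (7.16%) and 6 in the limbs (6.42%). Kcnab2, a cytoplasmic Kv1 partner, read 139 and 136 CPM in brain. Dpp6, a Kv4 partner, read 227 and 182 CPM in brain. Kcng4, a silent Kv subunit, was highest in heart at 74.8 and 219 CPM. Cacng1, the γ subunit of the skeletal muscle calcium channel, was highest in hind limb at 132 and 43.0 CPM, and Jph2, which ties the cardiac membrane to the calcium store, in heart at 191 and 242.

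Some members sit next to each other in the assembly: 9 contigs carry several, with 9 pairs of different symbols. Kcnj2 and Kcnj16 lie 446214 bases apart and differed in tissue, Kcnj2 being highest in brain (4.15 and 10.4 CPM) and Kcnj16 in kidney. Kcnj10 and Kcnj9 lie 620643 bases apart and were both called in brain, with Kcnj10 in kidney besides. Scn2b and Scn4b lie 170280 bases apart, the former highest in brain and the latter in fore limb. Kcnj5 lies 578947 bases from Kcnj1 model 2 and had its highest mean in heart.

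Thyroxine-induced metamorphosis was the second comparison: metamorphosed against neotenic animals in the 12 tissues with 2 libraries of each, in 1 edgeR model of all 61 libraries. No member of the 68 tested passed an adjusted p of 0.05 in any of the 12 tissues. Over all 20216 genes the same test called 447 higher and 542 lower in skin (2.21% and 2.68%), 73 and 72 in tail (0.361% and 0.356%), 65 and 56 in hind limb (0.322% and 0.277%), 58 and 41 in spleen (0.287% and 0.203%), 2 and 2 in liver (0.00989% each), 1 higher in bladder (0.00495%) and 0 in the other 6 tissues. At an unadjusted p under 0.05 the members numbered 15 in hind limb, all of them higher, where 18.3% of all genes passed in either direction. With the share of all genes in either direction likewise, they numbered 6 in bladder (8.06%), 5 each in liver (3.3%), spleen (9.55%) and tail (11.7%), 4 each in eye (6.43%) and stomach (8.68%), 2 in intestine (8.13%) and 1 each in cloacal chamber (2.14%), kidney (3.09%), lung (3.08%) and skin (23%). DESeq2's Wald test called 3 in all: Kcnk3 in skin, where it called 8.99% of all genes in either direction, Cacnb1 in bladder (1.6%) and Kcnq1 in eye (0.559%). It called no member in hind limb (6.81%), tail (3.11%), spleen (2%), intestine (1.9%), stomach (1.41%), liver (0.44%), cloacal chamber (0.257%), kidney (0.139%) or lung (0.124%).

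The member with the smallest p in each tissue was often one of few reads. Kcnq1 in eye read 6.71 and 9.58 CPM in neotenic and 16.6 and 66.4 in metamorphosed libraries (log2 fold change 2.34, SE 0.57, edgeR adjusted p = 0.179). Cacna2d2 in hind limb read 0 and 0.0928 CPM against 0.67 and 1.03 (edgeR adjusted p = 0.0781), Cacna2d4 in stomach 0 and 0.14 against 3.95 and 2.63 (edgeR adjusted p = 0.191), and Kcnh5 in spleen 0 and 0 against 2.41 and 1.97 (edgeR adjusted p = 0.223). In each of these the libraries of the states did not overlap. Kcnk3 in skin rested on 1 library, at 0 and 0 against 0 and 0.668 CPM (edgeR adjusted p = 0.0964).

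In the other tissues the smallest p was weaker. Cacnb1 in bladder read 0.328 and 26.6 CPM in neotenic libraries and 0.198 and 0.463 in metamorphosed ones (log2 fold change −5.20, edgeR adjusted p = 0.25), the library of 26.6 being the one with muscle markers, and without it the log2 fold change was 0.10. Kcnj15 in tail read 1.64 CPM in replicate 1 and 30.3 in the library labelled tail replicate 2, the one with the gastric marker, against 1.04 and 1.42 in metamorphosed tail (log2 fold change −3.65, edgeR adjusted p = 0.192). Kcnc4 in intestine read 0 and 0 against 0.142 and 1.05 CPM (edgeR adjusted p = 0.341) and Cacna1g in liver 0 and 0 against 0 and 0.823 (edgeR adjusted p = 0.56). For Scn1a in lung (1.01 and 3.24 against 0.243 and 0 CPM), Cacna1d model 2 in kidney (0.994 and 0.634 against 0 and 0) and Kcnh7 in cloacal chamber (0 and 0 against 0.244 and 0.494) the edgeR adjusted p was 1.

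The members as a group leaned one way in some tissues. Their median log2 fold change, metamorphosed against neotenic, was 1.46 in hind limb (all genes 0.17), where metamorphosed replicate 2 is one of the libraries with intestine markers, 1.14 in liver (0.06) and 0.82 in bladder (0.10), and −0.73 in eye (−0.0017) and −1.04 in skin (−0.39), where metamorphosed replicate 1 is the library of 69278 counts. Those with an unadjusted p under 0.05 in hind limb included Cacna1c (0.736 and 0.557 against 2.68 and 5.10 CPM) and Scn1a (0 and 0.278 against 1.56 and 2.26), low levels beside those of brain. The summed neuron markers stood at 5.33 and 3.06 CPM in neotenic and 26.8 and 38.7 in metamorphosed hind limb, without overlap, and their part in this was not tested. The gastric marker Gkn1 read 5.15 and 2.13 CPM in neotenic and 29.7 and 46.5 in metamorphosed hind limb. In metamorphosed liver it read 0.648 and 50.3 CPM, beside 4.53 and 30.5 of the neuron markers (neotenic 2.38 and 3.12). In metamorphosed bladder Gkn1 read 0.496 and 23.9 CPM (neotenic 0.983 and 1.02). The part of RNA from other tissues in these leanings was not tested. In hind limb 23 members were higher without overlap of the libraries and 0 lower, where 20.1% and 16% of all genes were. In eye 5 were higher and 26 lower (18.2% and 20.7% of all genes), in cloacal chamber 20 and 5 (13% and 11.1%), in liver 14 and 2 (14.5% and 10.6%) and in skin 2 and 19 (8.4% and 38%). The eye members included Kcnc1, which read 20.7 and 29.9 CPM in neotenic and 9.58 and 8.72 in metamorphosed eye, and Scn1a at 31.7 and 40.6 against 19.3 and 13.4. The summed neuron markers stood at 669 and 836 CPM against 476 and 305 in the same libraries, and their part in this was not tested.

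**Figure D5:**
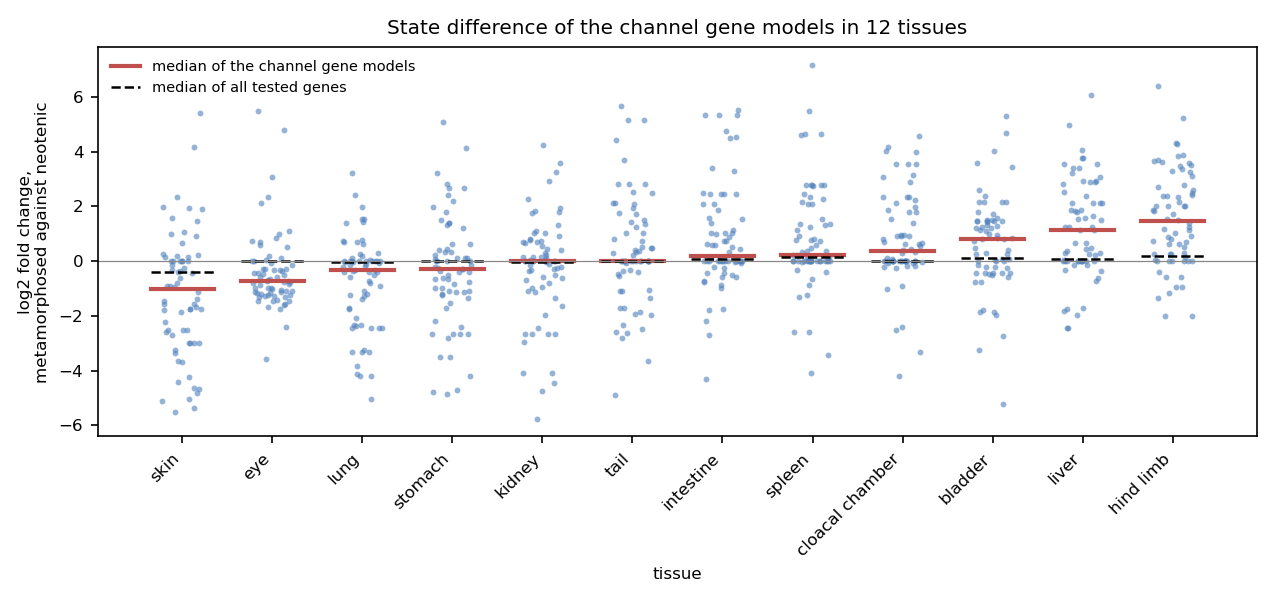
log2 fold change, metamorphosed against neotenic, of each of the 68 tested channel gene models (points) in the 12 tissues with 2 libraries per state; red lines are the medians of the members and dashed lines those of all tested genes. The red line lies at 1.46 in hind limb and at −1.04 in skin, and no point passed an adjusted p of 0.05.

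The remaining tissues were mixed. In spleen 17 members were higher and 4 lower without overlap (30.5% and 15.4% of all genes), in lung 3 and 17 (14.6% and 21.9%), in bladder 13 and 2 (17.3% and 12.2%), in intestine 13 and 5 (17.2% and 16%), in kidney 8 and 11 (16.3% and 22.7%), in stomach 7 and 10 (15.9% and 15.7%) and in tail 12 and 6 (17% and 15.7%). Cacnb4 was higher without overlap in 6 of the 12 tissues, and Cacna1d model 3 was lower in 6. These were the largest such counts among the 68 members. The smallest edgeR adjusted p of each over the tissues was 0.223, and the like count over all genes was not taken. The kidney genes had these values in both states: Kcnj1 read 28.6 and 52.8 CPM in metamorphosed kidney against 82 and 91.8, Kcnj16 291 and 367 against 273 and 330, and Kcnj10 18.1 and 13.8 against 17.2 and 20.6. Of these, Kcnj1 was lower in both metamorphosed libraries and the others overlapped.

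In limb and tail, libraries under one label differed for the muscle pore, in part where a library stood apart from its label. Cacna1s read 331 and 25.6 CPM in metamorphosed hind limb against 163 and 66.3. Of these, the 25.6 is of replicate 2, one of the libraries with intestine markers. In metamorphosed tail Cacna1s read 62 and 101 CPM. In neotenic tail it read 37.6 CPM in replicate 1 and 0 in the library labelled tail replicate 2, the one with the gastric marker. In eye it read 43.3 and 40.2 CPM in metamorphosed libraries against 4.94 and 14.6, without overlap, beside 11077 and 13431 CPM of the summed skeletal muscle markers against 709.8 and 1997; the part of the markers in this was not tested.

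Brain, fore limb and heart have 1 metamorphosed library, with no replicate check. In brain 18 of the 68 members lay above both neotenic libraries and 25 below both, where 36.9% and 29.5% of all genes did. In heart 31 lay above and 10 below (38.1% and 27.2%), and in fore limb 34 and 14 (45.1% and 36.1%). In metamorphosed brain Kcnc1 read 71.1 CPM (neotenic 130 and 121), Scn8a 36.6 (80.1 and 75.6) and Kcnd3 33.8 (56.5 and 59.5), while Cacnb3 read 165 (25.5 and 48.4), Scn2b 41.2 (8.95 and 20.5) and Kcnj9 14.4 (5.68 and 5.95). In metamorphosed heart Cacnb4 read 60.4 CPM, above both neotenic libraries, and Cacna1c and Cacna1g lay between them.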

How the data were processed

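The authors extracted RNA with TRIzol, built tagmentation libraries and, per the labels and file headers, used STAR, featureCounts v1.6.0 and DESeq2 against the AmexG v3.0.0 assembly. The deposited tables hold whole-number counts of reads per gene model over its exons, without strand, 1 library a table, with no normalization. Totals ran from 69278 to 27389476 counts a library, so the level that 3 counts give, the floor used per library, differs between libraries.

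Counts of 61 libraries were tested in R 4.3.3 with edgeR 4.0.16 (TMM, filterByExpr, estimateDisp, glmQLFit, glmQLFTest) and Benjamini-Hochberg adjustment over all genes. Tissues were compared in the 34 neotenic libraries, each against the mean of the other 16 (18982 genes, 64 members), or fore and hind limb together against the other 15. States were compared in all 61 libraries (20216 genes, 68 members) at an adjusted p under 0.05. CPM are counts scaled by the library total times its TMM factor; levels of different genes were ranked only per kilobase of gene model, and many models are fragments. Members not tested in the neotenic libraries were Kcnj5, Kcnk16, Kcnk18, Cacna2d1 model 3, Cacna2d3 and Cacna2d3 model 2. Symbols come from the tables, and 51 of the 57 are in a RefSeq gene table of another assembly. The counts over members include 4 gene models whose own values are not reported here. Exon overlaps and distances come from the tables' coordinates. Tables were handled in Python 3.11.15 with NumPy 2.4.6 and pandas 2.3.3.

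The members, gene lists and tests were chosen with earlier results of these data known. Named genes are the 10 members of largest log2 fold change among those enriched in brain with at least 1 CPM in both libraries, the 5 such in eye, heart and limbs and 2 such elsewhere, the list members where a list is described, the member of smallest p in a state comparison without a call, and the up to 5 of highest level per length in each family; the values of metamorphosed brain, hind limb and eye were picked after being seen. The planned test of a state difference between tissues was to be read for called members only. It was fitted, and no result of it is given, as no member was called.

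Batch numbers in the titles are shared by tissues and states. Over genes, the difference between replicates 1 and 2 correlated between the states at −0.44 to 0.28 in 12 tissues (median −0.05), above 0.1 in 3. Alternatives were DESeq2 1.42.0 and its size factors, a filter of at least 1 count, a log2 fold change of at least 4 (1 for states), a replicate block, models of one symbol summed, the libraries of a tissue alone, and leaving out libraries. On simulated data with 200 changed genes, the brain comparison recovered 79% of 4-fold and 100% of 16-fold changes (4.28% of calls false). Recovery meant an adjusted p under 0.05 alone. The log2 fold change of at least 2 asked for enrichment was not applied, so 79% is not the rate of that rule. The hind limb state comparison recovered 3% and 63% (4.35% false), and 0 calls were made when nothing was changed. The simulated spread came from the fitted trend alone, which was also given to the fit, and changed genes had a mean of at least 1 CPM. These rates do not cover members of lower mean, among them Kcnj6, Cacna1a and Kcnq3.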

Additional observations from a re-analysis of the deposited data

How the results depend on the processing

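With a log2 fold change of at least 4, 6 members were enriched in heart and 8 pairs of a member and a tissue in the 12 tissues other than brain, eye, heart and limbs, against 12 and 41 at the threshold of 2. DESeq2's Wald test gave 26 of these pairs, and 40 members in brain, 33 in eye, 9 in heart and 2 in the limbs. Leaving out 1 library of the tissue gave 45 to 51 members in brain, 37 to 43 in eye, 10 to 11 in heart, 2 to 3 in the limbs and 34 to 42 pairs in the other tissues. With the replicate block by batch number, 52, 48, 12 and 2 members were called in brain, eye, heart and limbs and 36 pairs elsewhere, and it changed the call of no named member. Restricting to genes that pass the filter without the tissue's own libraries, chosen after seeing the data, left 44 of 56 members in brain (14.3% of all such genes). In eye it left 47 of 63 (13.3%). For the other settings the share of all genes called was not set beside these counts, so a change in members cannot be told from one of all genes. Of 332 alternative values of 41 named enrichments, 318 kept their side of the threshold and 14 lost it, with the direction kept; these include Kcnj1 in kidney under DESeq2 (log2 fold change 11.50, DESeq2 adjusted p = 0.217).

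Between states, the count of members was 0 with the main test and 1 in skin under DESeq2 (Kcnk3, log2 fold change 6.01, adjusted p = 0.0367, over all alternatives 0.0367 to 1), 2 in the other 9 tissues under DESeq2 (Cacnb1 in bladder, adjusted p 0.0267, range 0.0267 to 1, and Kcnq1 in eye, adjusted p 0.0212, range 0.0212 to 1) and 1 there with each tissue's own libraries (Kcnh5 in spleen, edgeR adjusted p = 0.0242, range 0.0242 to 0.838). Leaving out 1 library gave 0 to 2 in hind limb (Cacna2d2 and Kcnj1, edgeR adjusted p = 0.0493 and 0.0435, both without metamorphosed replicate 1), 0 to 1 in the other 9 tissues (Kcnq1 in eye, without metamorphosed replicate 1) and 0 in skin and tail. The hind limb values without metamorphosed replicate 1 rest on replicate 2 alone, one of the libraries with intestine markers. That library also held 201 CPM of 6 summed kidney tubule markers, against 29.5 in replicate 1 and 19.3 and 11.9 in neotenic hind limb. Cacnb1 in bladder ran from −6.18 without neotenic replicate 1 to a reversed log2 fold change of 0.10 without neotenic replicate 2. The causes were not tested. The replicate block changed no state call. Batch numbers crossed in cloacal chamber, hind limb and liver, chosen after seeing the data, called 73, 0 and 0 genes (as numbered 0, 0 and 18) and 0 members. Each state comparison has 2 libraries a group, which limits what it can detect, and the 69278 counts of metamorphosed skin replicate 1 leave most members at or under 3 counts there.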
